A study of Homo sapiens with 2 samples.

Results

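The ABC transporter family was taken as every gene whose symbol in the platform annotation is ABC, a letter from A to G and digits. This gave 42 of the 19775 genes named on the array, read by 96 of its 54675 probe sets. ABC proteins bind ATP through a conserved cassette, and most use its hydrolysis to move lipids, drugs, conjugates or peptides across a membrane. Some, such as ABCA1, are full transporters in a single chain, others, such as the ABCG proteins, have a single cassette and work as pairs, and the ABCE and ABCF proteins carry no membrane domain and act in translation. In tumour cells the family is best known for export of cytotoxic drugs, and in most tissues for export of cholesterol.

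Galectin-3, a sugar-binding protein encoded by LGALS3, had been silenced by a synthetic double-stranded small interfering RNA in AGS, an epithelial line grown from a stomach adenocarcinoma, and the same line served as control. There was 1 array of galectin-3 silenced cells and 1 of control cells. For how long the gene was silenced, and what the control cells received, the sources used here do not say. The question asked of the arrays is which transcripts differ once galectin-3 is lowered.

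With 1 array a group no difference below has a replicate check, no test was possible and no p-value is given. A single cell line is also 1 genetic background, and fewer cells expressing a gene and less RNA per cell cannot be told apart. Values are MAS5 signals, a linear brightness summarised for each probe set on its own array. A probe set was counted as measured where it was above a background floor on at least 1 array. That floor was set at the 95th percentile of the signals of olfactory receptor genes (107 probe sets), and was 82.9 on the silenced array and 87.8 on the control array. Probe sets of 1 gene above the floor on both arrays gave log2 ratios that differed with an SD of 0.35 over 5288 genes. Such a spread comes from the same RNA extracts and says nothing of variation between cultures. LGALS3 had a signal of 2699.8 on the silenced array, against 20206 on the control array, and its other probe set was under both floors. Of 10 epithelial markers on the array 9 were measured, 8 of them with a ratio above 0 and 1 below on the probe set taken for each. Their median log2 ratio of silenced over control was 0.43. The 1 below was ESRP1, with -0.21, and -0.53 on another probe set. Among the 8, KRT7 had 0.99 but -1.05 on another probe set, so its direction is not settled. EPCAM had 19383 in silenced and 18866 in control cells, and CLDN4, a tight junction gene, was past 2-fold with 2871 in silenced and 1356 in control cells. Of the markers for other cells, 0 of 8 leukocyte genes, 2 of 10 fibroblast genes, 1 of 6 endothelial genes and 1 of 7 hepatocyte genes were measured.

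Few ABC genes were past 2-fold between silenced and control cells, and the same was true of all measured genes. Past 2-fold in neither direction were 21 of the 22 measured members and 10816 of all 11600 measured genes. Of the 42 genes 22 were measured, 20 with signal over the floor on each array and 2 on the control array alone, and the other 20 were under it on both. ABCA1 alone was at least 2-fold higher in silenced cells, which is 4.55% of the measured members beside 3.7% of all 11600 measured genes. Of the measured members 0 were at least 2-fold lower, beside 3.06% of all measured genes. At the smaller size of 1.5-fold, ABCA1, ABCA5 and ABCC3 were higher (13.6%, beside 11.6% of all genes) and 0 members were lower (beside 10.3%). The counts at 1.5-fold depend on the scaling. With the poly-A controls set equal ABCA1 alone was higher, while ABCF1 and ABCG4 were lower, beside 5.91% of all genes higher and 20.9% lower. With the hybridization controls set equal ABCD4 joined the 3 higher genes, beside 19% of all genes higher and 5.93% lower. At 2-fold the share of members higher is close to that of all genes, and 22 members are too few to read the 0 lower as a lack. The median log2 ratio of silenced over control was -0.09 over the 22 members and 0.00 over all measured genes. The interquartile range was -0.26 to 0.19 for the members and -0.28 to 0.30 for all genes. The members divided into 10 with a ratio above 0 and 12 below. The sign of the family median is not settled, since it was 0.12 with a floor 2 times higher and 0.11 with a floor that includes receptor pseudogenes. With the hybridization controls set equal it was 0.09, where the median of all genes was 0.18.

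**Figure D1:**
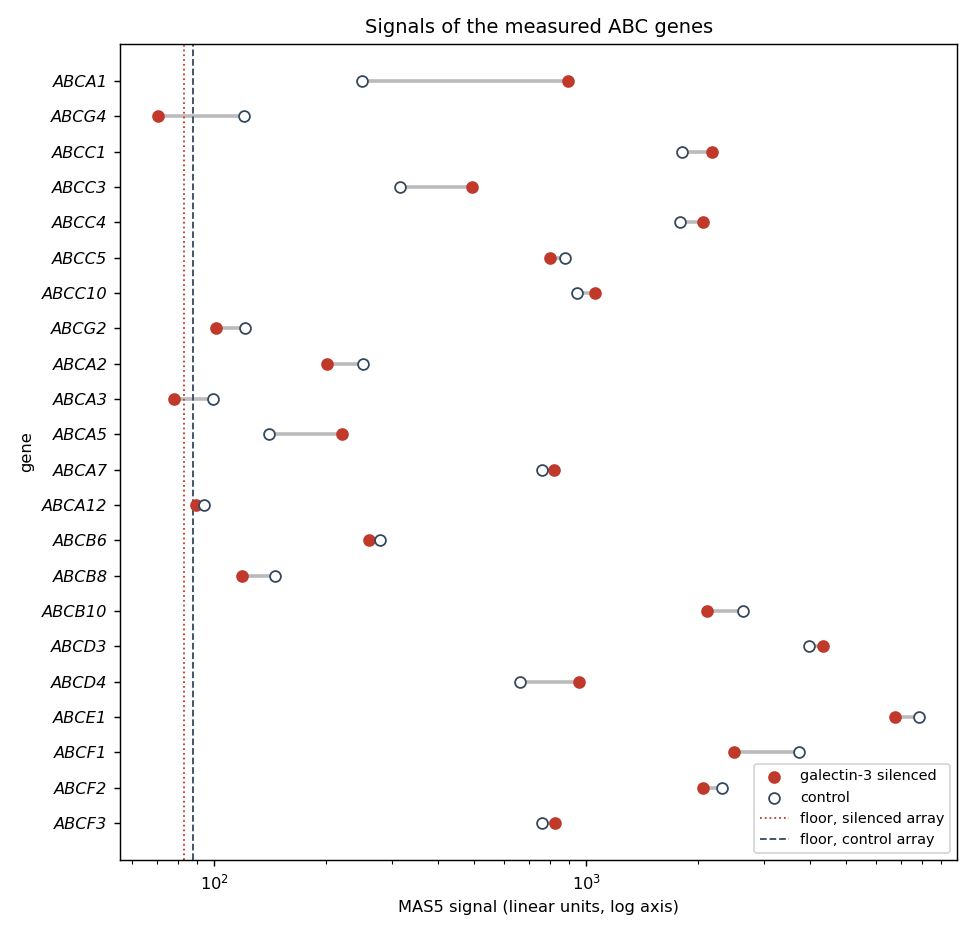
Signals of the 22 measured ABC genes on the silenced array (filled) and the control array (open), on a log axis of MAS5 units, with each array's floor as a vertical line and 1 probe set a gene. ABCA1 has the widest gap, at 893.8 on the silenced and 249.3 on the control array, and levels of different genes are read by different probes and cannot be compared.

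ABCA1 was the member with the largest difference. It is a full transporter of the plasma membrane that hands cholesterol and phospholipid to lipid-poor apolipoprotein A-I, the first step in making high-density lipoprotein. Its signal was 893.8 in silenced cells, against 249.3 in control cells, which is 3.59-fold higher with a log2 ratio of 1.84. A second probe set of the gene had 604.9 in silenced and 208.8 in control cells, a log2 ratio of 1.53. The gap between these 2 ratios is smaller than the SD between probe sets, and each ratio is several times that SD. Both probe sets read the same RNA extracts, so this SD does not measure variation between cultures. Another 2 ABCA1 probe sets were under the floor on both arrays. Counted from the highest ratio, ABCA1 stood 51st of the 11600 measured genes, and its ratio ran from 1.60 to 2.02 over 13 alternative settings. Beside this difference, the fibroblast gene COL1A1 had signals of 1502 in silenced and 816.3 in control cells, while its other probe sets gave log2 ratios of -0.55 and 0.53, and the other fibroblast gene measured, THY1, had 119.1 in silenced and 90.2 in control cells. The summed signals of the 10 fibroblast genes were 1830 in silenced and 1216 in control cells, and those of the 8 leukocyte genes 272.9 in silenced and 212.3 in control cells. The defining fibroblast genes DCN and LUM were under both floors, as were the leukocyte genes. The summed signals of the 10 epithelial genes were 123171 in silenced and 101547 in control cells, and KRT19, a keratin of simple epithelia, had a log2 ratio of 0.68. The part of these markers in the ABCA1 result was not tested.

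The sequence just before the ABCA1 start is shown because this gene carries the family's largest difference. That of ABCF1 is shown because it had the lowest ratio among members above both floors, on the probe set taken for each gene. Both are the 250 bases before the gene's start in RefSeq on GRCh38.p14, written 5′ to 3′ on the gene's strand. ABCA1 lies at chr9:104928156-104928405 on the minus strand and ABCF1 at chr6:30571192-30571441 on the plus strand. Capitals mark matches to 3 patterns, a DR4-like repeat (AGGTNA and NGGTCA with 4 free bases between them), the E-box CACGTG and the TATA box TATAAA, searched on both strands.
ABCA1: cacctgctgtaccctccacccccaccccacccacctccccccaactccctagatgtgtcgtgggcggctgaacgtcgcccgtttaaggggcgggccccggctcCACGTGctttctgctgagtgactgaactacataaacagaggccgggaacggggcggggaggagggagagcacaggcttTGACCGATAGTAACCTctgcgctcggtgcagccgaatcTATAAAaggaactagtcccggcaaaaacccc
ABCF1: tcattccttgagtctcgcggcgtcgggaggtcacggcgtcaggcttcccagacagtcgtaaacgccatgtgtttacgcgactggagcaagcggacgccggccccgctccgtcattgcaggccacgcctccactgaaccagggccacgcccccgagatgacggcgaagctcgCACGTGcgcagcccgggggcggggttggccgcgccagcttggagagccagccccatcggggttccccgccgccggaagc

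Liver X receptors, which sense oxysterols and are known regulators of ABCA1, bind such direct repeats as partners of the retinoid X receptor. In ABCA1 the repeat was found as TGACCGATAGTAACCT on the opposite strand, 69 to 54 bases before the start. The pattern was loosened with this promoter known, so the match itself is no finding. It was present in 0.0797% of 35116 promoter windows of the same length, and in 1 of 28 windows for 20 measured ABC genes, that of ABCA1 itself. As the pattern was loosened with that window known, these shares cannot show that the match is unusual. The strict form, AGGTCA repeated with the same spacing, was in none of the ABC windows and in 0.0142% of all windows. The E-box was present in 7 of the 28 ABC windows and in 6.34% of all, and the TATA box in 3 of 28 and in 10.7% of all. Windows of 1 gene can overlap. The GC box GGGCGG, which occurs 3 times in the ABCA1 window and 1 time in that of ABCF1, was in 19 of 28 and in 42.6% of all. CCAAT was in 5 of 28 and in 32.0% of all, and an interferon element, taken as GAAA repeated with 2 free bases between, in 0 of 28 and in 3.02% of all. Both members printed hold the E-box.

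The remaining sterol exporters were weak or not measured. ABCG4, a paired sterol transporter known mainly from brain, had 70.7 in silenced cells, which is under the floor, against 120.5 in control cells. It was therefore at least 1.45-fold lower in silenced cells, with a bound of -0.54 on the log2 scale. With the higher floor from receptor pseudogenes it was not measured at all. ABCG1, which passes cholesterol to mature lipoprotein particles, gave no signal over either floor on any of its 4 probe sets. Also under both floors were ABCG5, with signals of 75.8 in silenced and 40.8 in control cells, and ABCG8, with 14.2 in silenced and 19.2 in control cells. These proteins pair to excrete sterols from gut and liver cells, and their genes are neighbours in RefSeq. The higher signal of ABCA1 was thus not accompanied by a measured signal of ABCG1, ABCG5 or ABCG8 on either array.

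**Figure D2:**
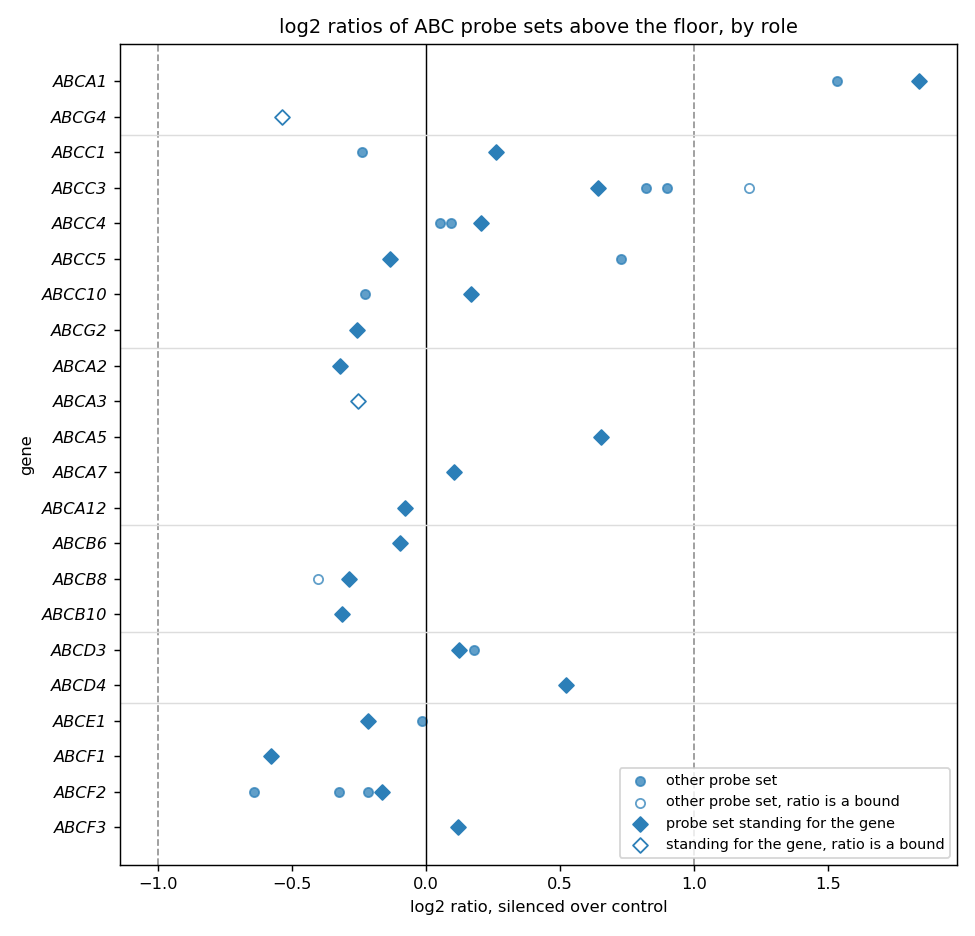
The log2 ratio of silenced over control for each probe set of the measured ABC genes, in rows grouped by role, with 2-fold as dashed lines and open symbols for bounds. Both ABCA1 probe sets lie beyond 2-fold, at 1.84 and 1.53, the 4 ABCC3 probe sets lie between 0.64 and 1.21, and those of ABCC1, ABCC5 and ABCC10 fall on either side of 0.

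Among the drug exporters ABCC3 had the largest ratio, with all its measured probe sets above 0. ABCC3 exports glucuronide conjugates and bile salts across the basolateral membrane. Its signal was 492.3 in silenced and 315.8 in control cells, a log2 ratio of 0.64 or 1.56-fold. A second probe set had 273.8 in silenced and 154.8 in control cells, a ratio of 0.82, and another, of the cross-hybridising kind, 442.2 in silenced and 236.9 in control cells, a ratio of 0.90. On the fourth, also of that kind, the control signal of 77.5 was under the floor, so 202.7 in silenced cells is at least 2.31-fold higher. The last of the 5 was under both floors. All 4 probe sets with signal were thus higher in silenced cells, and the gene's ratio stayed above 0 under 5 other scalings, from 0.40 to 0.82.

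The other drug exporters had ratios within the spread between probe sets, or probe sets that disagreed. ABCC4, an exporter of cyclic nucleotides and nucleoside drugs, had 2058.8 in silenced and 1787 in control cells. Its 3 measured probe sets gave log2 ratios of 0.20, 0.09 and 0.05, and the gene's ratio was -0.03 with the poly-A controls set equal. ABCC1, an exporter of glutathione conjugates and of many cytotoxic drugs, had 2171.4 in silenced and 1812.3 in control cells on 1 probe set, a ratio of 0.26, and 563 in silenced and 664.8 in control cells on another, a ratio of -0.24. ABCC10, a broad exporter related to it, had 1057.1 in silenced and 941.7 in control cells, a ratio of 0.17, and on its other probe set, of the cross-hybridising kind, 365.3 in silenced and 428 in control cells, a ratio of -0.23. These genes therefore had no settled direction.

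ABCC5, an exporter of cyclic nucleotides, showed the widest disagreement in this class. On the probe set taken for the gene it had 797.1 in silenced and 874.6 in control cells, a log2 ratio of -0.13. On a second it had 545.1 in silenced and 329.3 in control cells, a ratio of 0.73, and the gap between them is wider than the SD between probe sets. Its last probe set was close to the floor, with 83.8 in silenced and 79.7 in control cells, and gave a bound with no direction. Which transcripts each probe set reads is not given in the files, so the difference could not be assigned to an isoform. ABCG2, a single-cassette protein that exports drugs and urate, was just above the floor with 101.3 in silenced and 121 in control cells, a ratio of -0.26. It was not measured with the higher floor from receptor pseudogenes.

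ABCB1, the P-glycoprotein of multidrug resistance, was under both floors, with 57.6 in silenced and 58.5 in control cells. The same held for ABCB5 with 4 probe sets, for ABCC2, the exporter of conjugates into bile, and for ABCC11, which is known from apocrine glands. Of the 10 drug exporters on the array 6 were thus measured, 0 of them past 2-fold in either direction. Among all measured genes 3.7% were at least 2-fold higher and 3.06% lower.

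The other lipid carriers belong mostly to the ABCA subfamily. ABCA5, a lysosomal protein linked to cholesterol handling, had 220.1 in silenced and 140.1 in control cells, a log2 ratio of 0.65 or 1.57-fold, on 1 probe set, while its second was under both floors. ABCA7, which moves phospholipids, had 816.6 in silenced and 759.7 in control cells, a ratio of 0.10. ABCA2, of the endolysosomal compartment, had 200.4 in silenced and 250.4 in control cells, a ratio of -0.32, with 2 more probe sets under both floors. ABCA12, which loads lipid into the lamellar granules of skin, was at the floor with 89.1 in silenced and 94.1 in control cells. ABCA3, the surfactant lipid carrier of lung, was above the floor in control cells only, with 78.1 in silenced and 99 in control cells, and so at least 1.19-fold lower. With the higher floor from receptor pseudogenes neither ABCA12 nor ABCA3 was measured. In this group ABCA5 was the gene with a ratio above the spread between probe sets, and it rests on a single weak probe set.

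RefSeq lists ABCA8, ABCA9, ABCA6, ABCA10 and ABCA5 as successive protein-coding genes. Among the 4 of these with named probe sets here, ABCA5 had signal, while ABCA6, ABCA8 and ABCA9 were under the floor on both arrays with all their probe sets. ABCA10 was not analysed here.

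The organelle transporters of the ABCB group had ratios below 0 that were small. ABCB10, a protein of the mitochondrial inner membrane linked to haem synthesis, had 2115.3 in silenced and 2631.7 in control cells, a log2 ratio of -0.32. ABCB8, also mitochondrial, had 118.9 in silenced and 145.3 in control cells, a ratio of -0.29, and on a second probe set was at least 1.32-fold lower. ABCB6, a porphyrin carrier, had 260.2 in silenced and 278.5 in control cells, a ratio of -0.10 that was 0.08 with the hybridization controls set equal. All 3 ratios lie within the spread between probe sets. ABCB9, a lysosomal peptide carrier, was under both floors.

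In the ABCD group, paired transporters that feed peroxisomes or lysosomes, the ratios were above 0. ABCD4, which works in lysosomal release of cobalamin, had 953.4 in silenced and 663.1 in control cells, a log2 ratio of 0.52 or 1.44-fold, on 1 of its 2 probe sets. ABCD3, a major peroxisomal membrane protein that imports branched and long-chain acyl-CoA, had 4321.3 in silenced and 3964.1 in control cells, a ratio of 0.12. Its second probe set gave 0.18, and with the poly-A controls set equal the gene's ratio was -0.11. ABCD2 was under both floors. The ratio of ABCD4 stayed above 0 under the 5 other scalings, from 0.29 to 0.71, and that of ABCD3 did not.

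The soluble ABCE and ABCF proteins are 4 genes that each exceeded both floors. On the probe set taken for each gene, they included the lowest ratio of members above both floors. ABCF1, which binds the initiation factor eIF2, had 2488 in silenced and 3720 in control cells, a log2 ratio of -0.58 that is 1.495-fold lower and so just short of 1.5-fold. This rests on 1 probe set, and ran from -0.82 to -0.40 over the 5 other scalings. ABCE1, which splits ribosomes after termination, had 6756 in silenced and 7856.3 in control cells, a ratio of -0.22, and -0.02 on its second probe set. ABCF2 had 2060.6 in silenced and 2311.7 in control cells, a ratio of -0.17, and its 3 other measured probe sets gave -0.22, -0.33 and -0.64, the last of them near the floor. ABCF3 had 825.4 in silenced and 759.5 in control cells, a ratio of 0.12. ABCF2 and ABCF3 changed sign among the scalings, with 0.02 for ABCF2 when the hybridization controls were set equal and -0.12 for ABCF3 when the poly-A controls were.

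**Figure D3:**
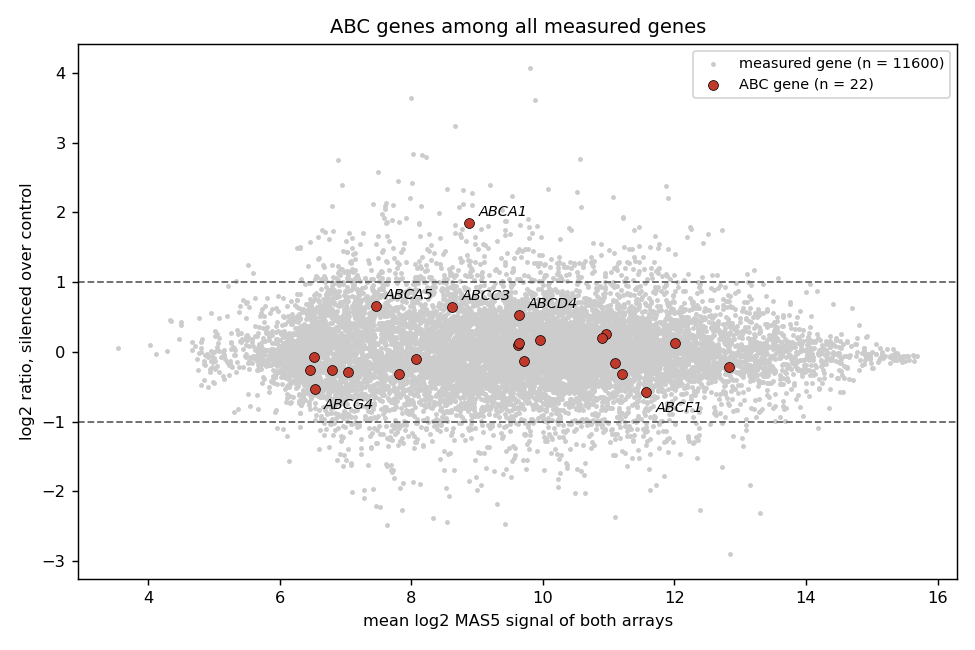
The log2 ratio of silenced over control against the mean log2 signal of both arrays for 11600 measured genes (grey) and the 22 measured ABC genes (red), with 2-fold as dashed lines. ABCA1 at 1.84 is the single ABC gene beyond 2-fold, and the others lie between -0.58 and 0.65 within the body of all genes.

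The 20 members under both floors had signals up to 75.8 on the silenced array and up to 86 on the control array on the probe set taken for each gene. Besides those named above they were ABCA4, the retinal transporter, ABCA13, ABCB4 and ABCB11, which secrete phospholipid and bile salts from liver cells, the potassium channel subunits ABCC8 and ABCC9, and ABCC12 and ABCC13. For these genes a difference was not detectable at this signal, which does not show that their transcripts are absent. The potassium channel pore genes KCNJ8 and KCNJ11, whose products assemble with ABCC8 and ABCC9, were under both floors too.

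Set side by side, the classes differed by single genes. The 2 measured sterol exporters of 5 had log2 ratios of 1.84 and -0.54, so their median of 0.65 describes neither gene. The 6 measured drug exporters of 10 ran from -0.26 to 0.64 with a median of 0.19. That median was -0.05 with the poly-A controls set equal, where the median of all measured genes was -0.24. The 14 measured genes of the other 27 ran from -0.58 to 0.65 with a median of -0.13. With the hybridization controls set equal it was 0.05, where the median of all measured genes was 0.18. By the 2-fold rule the counts of higher genes were 1 of 2 sterol exporters, 0 of 6 drug exporters and 0 of 14 others. These stand beside 3.7% of all measured genes, and classes of this size cannot be told apart from that share. The difference between classes was not tested. The ranges of drug exporters and other ABC genes overlapped over most of their length.

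Genes that work with ABC transporters were taken from 8 lists, and are shown in the plot of classes and pathway genes. Counts past 2-fold in them stand beside 3.7% of all measured genes higher and 3.06% lower, and each rests on 2 genes or fewer in a direction. Of 19 measured genes for sterol efflux control and acceptors 0 were at least 2-fold higher and 1 was lower, STARD4, a cholesterol carrier of the cytosol, with 154.7 in silenced and 328.2 in control cells. That count rests on the probe set taken for each gene, and SOAT1, a cholesterol-esterifying enzyme, had -0.0004 on it and -1.25 on its other. The list median was -0.10. The other measured genes of the list ran from -0.97 for SCARB1 up to 0.67 for NPC1. NPC1, which moves cholesterol out of lysosomes, had -0.71 on its other probe set. The liver X receptor gene NR1H3 had a ratio of 0.02, the retinoid X receptor gene RXRA -0.52 and SREBF1 -0.91. The part of these genes in the ABCA1 result was not tested. Of these 19 genes 7 had a ratio above 0 and 12 below.

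Of 19 measured genes for xenobiotic receptors and drug metabolism 1 was at least 2-fold higher and 1 lower, with a median of 0.08. CYP3A5, a drug-oxidising enzyme, had 1351.7 in silenced and 330.2 in control cells, a log2 ratio of 2.03, and its other probe sets gave 1.23 and 2.06. CYP1A1, the main target of the aryl hydrocarbon receptor, had 86.6 in silenced cells, near the floor, and 339.4 in control cells, a ratio of -1.97. Of 10 measured uptake carriers 1 was higher and 2 were lower, with a median of -0.25. That count rests on the probe set taken for each gene, and SLC19A1 had -0.91 on it and -1.05 and -0.81 on others. The carnitine carrier SLC22A5 had 1792.2 in silenced and 806.9 in control cells, a ratio of 1.15, and 0.44 on another probe set. The nucleoside carrier SLC29A1 had 469 in silenced and 1199.3 in control cells, a ratio of -1.35, and -0.77 on another, and the organic anion carrier SLCO4A1 had 723.1 in silenced and 1635.6 in control cells, a ratio of -1.18.

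**Figure D4:**
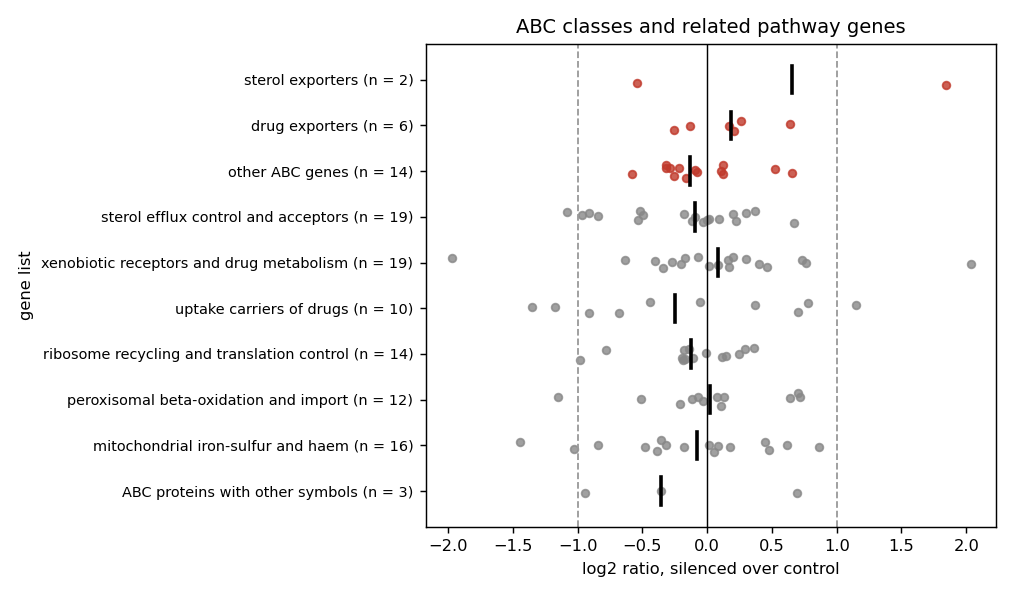
The log2 ratio of silenced over control for each measured gene of the 3 ABC classes (red) and of 7 related lists (grey), with list medians as black bars and 2-fold as dashed lines. The medians of the related lists lie between -0.36 and 0.08, and CYP3A5 at 2.03 and CYP1A1 at -1.97 are the outermost points.

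In each list of organelle and translation partners 2 genes or fewer were past 2-fold, beside 3.7% of all measured genes higher and 3.06% lower. Of 14 measured genes for ribosome recycling and translation control 0 passed 2-fold either way on the probe set taken for the gene, with a median of -0.12. Other probe sets went past it, since EIF2S1, a subunit of eIF2, had -0.18 on that probe set and -1.58 and -1.43 on its others, and EIF2AK4, a kinase of eIF2, had 0.36 on that probe set and -1.81 on its other. These genes therefore have no settled size or, for EIF2AK4, direction. The nearest were EIF3J, which assists ABCE1 in ribosome recycling, with 2555.5 in silenced and 5059.1 in control cells, a log2 ratio of -0.99, and EIF2B1, a subunit of the exchange factor for eIF2, with 1360.5 in silenced and 2335.4 in control cells, a ratio of -0.78. Of 12 measured peroxisomal genes 0 were higher and 1 was lower, HSD17B4, a beta-oxidation enzyme downstream of ABCD3, with 2318.3 in silenced and 5165 in control cells, a ratio of -1.16. Of 16 measured genes for mitochondrial iron-sulfur clusters and haem 0 were higher and 2 lower. These were NUBPL, an assembly factor of complex I, with 318.4 in silenced and 867 in control cells, a ratio of -1.45, and the cysteine desulfurase NFS1, with 647.2 in silenced and 1316.9 in control cells, a ratio of -1.02, and -0.71 on another probe set. The highest ratio of the list was that of UROD, a haem synthesis enzyme, with 6208 in silenced and 3405 in control cells, a ratio of 0.87, and 1.01 on its other probe set. The medians of these lists were 0.02 for peroxisomal and -0.08 for mitochondrial genes.

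Some ABC proteins carry other symbols and fell outside the rule. CFTR, the chloride channel of the ABCC subfamily, had 1615.7 in silenced and 3101.4 in control cells, a log2 ratio of -0.94, with -1.04 and -0.72 on its other probe sets. TAP1, which loads peptides for MHC class I, had 1366.6 in silenced and 847 in control cells, a ratio of 0.69. Its partner TAP2 had 453.3 in silenced and 579.9 in control cells, a ratio of -0.36. Of these 3 genes 0 passed 2-fold on the probe set taken for the gene, and CFTR went in the opposite direction to the ABCC3 gene of the same subfamily on each measured probe set.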

How the data were processed

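RNA from 1 galectin-3 silenced and 1 control AGS culture was labelled with biotin and hybridised to Affymetrix arrays, per the labels' protocols. Per the submitters' processing notes the authors used MAS5, and the deposited table holds its linear intensity for each probe set. Software version and scaling target were not given in the sources used here. On both arrays the 2% trimmed mean was 500.07, so the scaling was kept, and scaling of this kind hides a change in total RNA.

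Of 54675 probe sets 41097 carry 1 symbol in the platform annotation, 1801 carry several and 11777 were unnamed. All 42 members matched RefSeq (GRCh38.p14) by gene identifier, with 0 symbols updated. The floor replaced any lower signal, which leaves a bound where 1 array alone was above it. In 115 of 11600 genes the bound had no direction. Where a gene had several probe sets, the one brightest on average (in log2) was taken, and _x_at ones only where there was no other. The rule for named genes took all measured members, and of each pathway list up to 3 genes past 2-fold or the 2 largest. NPC1, SCARB1, NR1H3, RXRA, SREBF1, SOAT1, UROD, EIF2S1, EIF2AK4 and SLC19A1 fall outside it and were chosen after their values were seen. The same holds for EPCAM, KRT19, KRT7 and ESRP1. TAP2, KCNJ8, KCNJ11, DCN and LUM fall outside the rule too. Receptor symbols marked as pseudogenes were left out of the floor, and including them was an alternative. Members, roles and lists were chosen with earlier results of these data known. Python 3.11.15, pandas 2.3.3 and statsmodels 0.14.6 were used. The steps were tested on simulated data with changes larger than 2-fold, planted only in genes brighter on average than ABCA1. Recovery of changes near the floor, of bounds and of changes of 1.5-fold was not tested in this way. The 13 alternatives for the floor, pseudocount, scaling and probe sets, and the 1.5-fold size rule, are given at the end. The number of arrays limits the precision.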

Additional observations from a re-analysis of the deposited data

How the results depend on the processing

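Under 13 alternatives in floor, pseudocount, scaling and choice of probe sets, ABCA1 stayed the single ABC gene past 2-fold and 0 were lower. With the 1.5-fold rule, added after seeing the data, 3 were higher and 0 lower, but these counts turn with the setting. They were 1 higher and 2 lower (ABCF1, ABCG4) with the poly-A controls set equal, 1 higher with 50 added to the signals, and 1 lower with quantile normalization (ABCF1, -0.59) or with no floor (ABCG4, -0.77). Over the 13 alternatives they ran from 1 to 4 higher and from 0 to 2 lower. The sterol exporter median was 1.84 both with a floor 2 times higher and with the added floor that includes receptor pseudogenes, because ABCG4 was then under it and ABCA1 alone was left. The family median ran from -0.33 with the poly-A controls set equal to 0.12, the drug exporter median from -0.05 to 0.37 and the median of the others from -0.37 to 0.05. The scalings on hybridization and poly-A controls moved the median of all genes to 0.18 and -0.24. Each shifts all ratios by the same amount, so the family median relative to all genes had to stay at -0.09. That relative median was 0.12 with a floor 2 times higher and 0.13 with the pseudogene floor, so its sign is not settled. The scalings on controls also turned the balance of genes past 2-fold, 429 higher and 355 lower as reported, to 698 and 200, and to 222 and 700. Without a floor 709 genes were higher and 555 lower. Of single members, ABCC5 moved by more than the spread between probe sets, to 0.73 without _s_at and _x_at probe sets. No paired analysis was possible because each group has 1 array. Signals near the floor limit ABCG2, ABCG4, ABCA3, ABCA12 and ABCB8, the first 4 of which were not measured with the pseudogene floor.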

Other observations

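Some probe sets name an ABC gene outside the rule or together with another gene. The pseudogene ABCA11P had signals of 256.3 in silenced and 319.9 in control cells, a log2 ratio of -0.32, and ABCA17P had 212.9 and 173.9, a ratio of 0.29. ABCC6P1, and the probe sets shared by ABCB1 with ABCB4 and by ABCB8 with ASIC3, were under the floor on both arrays.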
